A study of Mus musculus with 8 samples.

Results

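The genes described here are 8 receptors and 2 signaling adaptors that are best known from natural killer cells. The receptors are Klrb1c, Klrc1, Klrc2, Klrd1, Klrk1, Klre1, Klrg1 and Ncr1, and the adaptors are Fcer1g and Tyrobp. The genes were chosen by name and not by a measured value, though with earlier results of these data known. All 10 were found among the 32285 genes of the count tables. Each was followed in bone marrow T cells of mice that carry the Runx1::Runx1t1 fusion and of control mice, in 4 classes of T cells, by the size of the T cell clone, and in each pool of mice.

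All mice were of the C57BL/6 strain, received Poly(I:C) into the peritoneum 4 times, at 5 mg/kg each time, and were sacrificed 4 weeks after induction. The Runx1::Runx1t1 group was Runx1Runx1t1/+; Mx1-Cre. The control group was Runx1Runx1t1/+ without Mx1-Cre by the study's methods, and wild type by the sample labels. Mx1-Cre is switched on by interferon in many blood cells and in other tissues, so recombination was not limited to T cells, and both groups received the interferon inducer. The mCherry reporter marks cells with the fusion. The age of the mice was not given in the sources used here. Live CD3+ cells without the mCherry reporter were sorted after T cells had been enriched by removal of other cells. Each group consisted of 2 pools with 2 mice in each, called replicate 1 and replicate 2, and a library of gene expression and another of T cell receptor (TCR) sequences were made from every pool. Every p-value of a comparison between the groups over all pools therefore measures the spread between 2 pools per group. Some fits left out 1 pool, which leaves 1 pool in a group, so their spread came from the 2 pools of the other group alone. Calls gained or lost between groups in such fits are a description only. Comparisons of classes or clone sizes, and of how these differ between groups, rest on the spread of differences within the 4 pools.

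Natural killer receptors read surface ligands of neighboring cells and either restrain or trigger killing. Most are C-type lectin-like proteins that have no signaling tail of the activating kind. They borrow it from small adaptors in the membrane, the Fc receptor gamma chain (Fcer1g), DAP12 (Tyrobp) and DAP10 (Hcst). T cells that have met antigen, invariant natural killer T cells and other innate-like T cells of the mouse also carry several of these receptors.

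The 4 gene expression libraries held between 90958101 and 102883449 unique molecular identifiers (UMIs), which mark distinct captured RNA molecules. Of 53033 barcodes kept, 35931 had a TRA and a TRB chain, and 34791 of these fell into the 4 classes. Cd8 T cells had a Cd8a or Cd8b1 UMI and no Cd4 UMI, and numbered 5464, 5522, 4709 and 5486 in Runx1::Runx1t1 replicates 1 and 2 and in control replicates 1 and 2. Cd4 T cells were defined in the opposite way, with 2040, 1780, 866 and 763 cells in the same order. Co-receptor-negative T cells had none of these UMIs, with 1405, 802, 2131 and 2083 cells. Cells with the TRAV11-TRAJ18 chain of invariant natural killer T cells were taken first as a class of their own, with 460, 219, 529 and 532 cells. All 5 T cell markers were found in each class and pool, with a summed level of 2779 to 4140 CPM, the UMIs of a gene per 1000000 UMIs of the sum. Zbtb16, which encodes the factor PLZF of invariant natural killer T cells, measured 79.0 to 107 CPM in the TRAV11-TRAJ18 class and 0.944 to 2.82 CPM in Cd8 T cells. Any pair of libraries shared 226 to 263 barcodes, between 1.77 and 1.96% of the smaller library.

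Of the 10 genes, 7 lie on mouse chromosome 6, where 5 of them sit within 101 kb from the start of Klre1 to the end of Klrc1 (build GRCm38). The order along the chromosome is Klre1 (129577905 to 129585827), Klrd1 (129591782 to 129598775), Klrk1 (129610323 to 129623864), Klrc2 (129647496 to 129660689) and Klrc1 (129666015 to 129678973). Klrb1c (128778485 to 128789215) and Klrg1 (122270596 to 122282882) lie at smaller coordinates on the same chromosome. Ncr1 (4337724 to 4345164) and Tyrobp (30413760 to 30417585) are on chromosome 7, and Fcer1g (171229572 to 171234365) is on chromosome 1. Klrc1 and Klrc2 are close copies of each other, and so is the neighbor Klrc3. How reads were divided among them is uncertain, and so are their separate values. Klrb1c overlaps the annotated gene Gm44511 on the same strand, so reads of that stretch cannot be assigned to one of them.

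Because the fusion holds the DNA-binding domain of Runx1, the promoters of the genes were searched for the core letters that RUNX proteins bind. The T cells profiled here were sorted as lacking the mCherry reporter of the fusion. The window was 250 bases before to 50 after the transcription start, from RefSeq on build GRCm38.p6, and 7 of the 10 genes had an entry. Klrd1, Klrg1 and Tyrobp had none. The letters TGTGGT or, on the other strand, ACCACA were in 9 of the 10 entries of these 7 genes and in at least 1 entry of each, while 16.8% of 32851 mouse promoters of the same length hold them. Klrc2, Klre1 and Ncr1 had more than 1 entry, and their entries overlap, so entries of a gene are not independent. The letters GGAAGT or ACTTCC, a core of ETS factor sites, were in the Klrb1c entry and in 23.8% of all promoters. The letters GTGTGA or TCACAC, a core of T-box sites, were in the entries of Klre1 and Ncr1 and in 14.5% of all promoters. A match describes the letters of the window and is neither a bound site nor a cause of any difference below. The 5 promoters that follow belong to a ligand-triggered activating receptor, an inhibitory receptor, the NK1.1 antigen, the receptor NKp46 and an adaptor, each read 5′ to 3′ on the strand of its gene, with the RUNX letters in capitals.
Klrk1 (chr6:129623815-129624114, minus strand): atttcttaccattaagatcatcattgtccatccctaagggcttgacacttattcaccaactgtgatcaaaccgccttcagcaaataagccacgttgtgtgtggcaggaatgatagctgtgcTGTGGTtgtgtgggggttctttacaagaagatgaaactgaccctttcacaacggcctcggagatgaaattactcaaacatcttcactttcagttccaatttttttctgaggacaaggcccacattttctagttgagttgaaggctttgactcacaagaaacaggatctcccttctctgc
Klrc1 (chr6:129678924-129679223, minus strand): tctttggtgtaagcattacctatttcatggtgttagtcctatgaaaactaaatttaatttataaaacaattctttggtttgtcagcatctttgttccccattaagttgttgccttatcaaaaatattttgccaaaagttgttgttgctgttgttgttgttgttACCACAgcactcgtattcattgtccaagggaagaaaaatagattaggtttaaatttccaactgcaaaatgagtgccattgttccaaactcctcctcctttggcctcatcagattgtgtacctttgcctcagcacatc
Klrb1c (chr6:128788592-128788891, minus strand): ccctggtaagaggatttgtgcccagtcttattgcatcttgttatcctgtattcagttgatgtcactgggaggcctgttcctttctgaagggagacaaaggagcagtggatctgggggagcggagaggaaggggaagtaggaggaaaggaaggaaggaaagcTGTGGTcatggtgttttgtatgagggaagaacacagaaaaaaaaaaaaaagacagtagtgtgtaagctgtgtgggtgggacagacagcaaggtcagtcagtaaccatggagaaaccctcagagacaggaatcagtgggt
Ncr1 (chr7:4337465-4337764, plus strand): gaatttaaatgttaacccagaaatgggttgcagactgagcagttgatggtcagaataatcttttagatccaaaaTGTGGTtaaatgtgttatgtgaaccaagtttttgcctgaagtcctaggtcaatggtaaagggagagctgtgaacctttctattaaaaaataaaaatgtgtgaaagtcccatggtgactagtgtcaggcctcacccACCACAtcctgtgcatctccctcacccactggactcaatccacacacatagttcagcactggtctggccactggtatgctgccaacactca
Fcer1g (chr1:171234300-171234599, minus strand): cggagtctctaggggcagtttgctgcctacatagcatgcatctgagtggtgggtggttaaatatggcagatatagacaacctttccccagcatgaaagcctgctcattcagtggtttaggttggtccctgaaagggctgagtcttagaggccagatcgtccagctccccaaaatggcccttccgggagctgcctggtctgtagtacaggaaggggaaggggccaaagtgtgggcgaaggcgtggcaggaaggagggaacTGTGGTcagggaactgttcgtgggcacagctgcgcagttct
The RUNX letters stand before the start in 4 of these promoters and just after it in Fcer1g, and Ncr1 holds them once on each strand.

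Levels were first compared between the classes. In pooled levels most of the receptors were highest in co-receptor-negative and TRAV11-TRAJ18 T cells, and Cd8 T cells came next. Klrd1 and Klrg1 departed from this, and so did the share of cells with Klrc1 in the Runx1::Runx1t1 pools, as given below. On average Cd4 T cells had the least of all but Klrg1. The co-receptor-negative class lacks a co-receptor UMI, which does not show that its cells lack the co-receptor. Counts were summed per pool and class, and edgeR's quasi-likelihood test with Benjamini-Hochberg adjustment over all genes was used with the pool as a block. Both classes of a pool come from the same mice and library. In a sum, fewer cells with a gene and fewer UMIs per such cell cannot be told apart, so the share of cells with a UMI is given where it matters.

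Of the 10 genes, 9 were higher in co-receptor-negative than in Cd8 T cells, where 9.47% of 12929 genes tested were higher and 7.06% lower. Ncr1, which encodes the activating receptor NKp46, measured 13.6 and 17.95 CPM in the Runx1::Runx1t1 pools and 25.4 and 26.0 CPM in the control pools among co-receptor-negative T cells, against 0.519 to 2.66 CPM in Cd8 T cells. Its log2 difference was 3.69 ± 0.26 (SE; adjusted p = 0.000641). The ranges of the classes did not overlap. At most 0.893% of Cd8 T cells of a pool had an Ncr1 UMI, a share that the B cells described below do not set apart from background. Nor do they for co-receptor-negative T cells of the Runx1::Runx1t1 pools, at 2.99 and 2.74%. In the control pools of that class the share was 7.56 and 8.40%. Fcer1g differed by 2.72 ± 0.23 (adjusted p = 0.0012), Tyrobp by 2.58 ± 0.18 (adjusted p = 0.000584) and Klrb1c by 2.47 ± 0.18 (adjusted p = 0.000641). Klrd1, which encodes CD94, the shared partner chain of the Klrc receptors, was the exception, at 125 to 326 CPM in co-receptor-negative and 129 to 224 CPM in Cd8 T cells. Its difference of 0.14 ± 0.11 did not pass the test (adjusted p = 0.427). In the Runx1::Runx1t1 pools 34.2 and 22.4% of co-receptor-negative T cells had a Klrd1 UMI, against 56.2 and 42.3% of Cd8 T cells. In the control pools these shares were 70.3 and 64.3% against 67.2 and 63.5%. For Klrc1 they were 18.9 and 14.7% against 22.0 and 20.4% in the Runx1::Runx1t1 pools. In the control pools they were 51.5 and 51.1% against 23.7 and 27.4%. These shares are not at equal depth. Without the pool as a block, the calls of Klrb1c, Klre1, Ncr1 and Tyrobp remained, 4 in all.

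In TRAV11-TRAJ18 T cells 9 genes were again higher than in Cd8 T cells, beside 18.3% of 12613 genes tested. Klrb1c, which in this strain encodes the NK1.1 antigen that gave natural killer T cells their name, measured 313 and 260 CPM in the Runx1::Runx1t1 pools and 385 and 419 CPM in the control pools. Between 58.9 and 76.6% of these cells had a Klrb1c UMI, against 2.93 to 13.9% of Cd8 T cells. Its log2 difference from Cd8 T cells was 3.55 ± 0.26 (adjusted p = 2.41e-06), and its values in the classes did not overlap. Klrc2 followed with 1.99 ± 0.24 and Klrk1 with 1.40 ± 0.17. Klrg1 had no difference that passed, at -0.06 ± 0.27 (adjusted p = 0.889), but with 1 cell per clonotype it was higher by 0.61 (adjusted p = 0.0222) and in single-cell clonotypes alone, a choice made after the data were seen, by 0.91 (adjusted p = 0.00152). Without the pool as a block 5 genes were called, namely Klrb1c, Klrc1, Klrc2, Klrk1 and Klre1.

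Cd4 T cells had lower levels than Cd8 T cells of 8 genes, beside 19.3% of 13129 genes tested. The differences ran from -2.91 ± 0.24 for Klrd1 and -2.87 ± 0.21 for Klrc1 to -0.61 ± 0.16 for Tyrobp. Klrg1, an inhibitory receptor for cadherins that marks terminally differentiated effector cells and some regulatory T cells, went the other way. It measured 99.3, 81.5, 35.1 and 80.0 CPM in the 4 pools of Cd4 T cells and 5.78 to 18.6 CPM in Cd8 T cells, a log2 difference of 2.70 ± 0.22 (adjusted p = 9.76e-05). Ncr1 had -0.94 ± 0.40 and did not pass (adjusted p = 0.102). Without the pool as a block Klrg1, Klrc1, Klrd1, Klrk1 and Klre1 kept their calls, 5 in all.

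**Figure D1:**
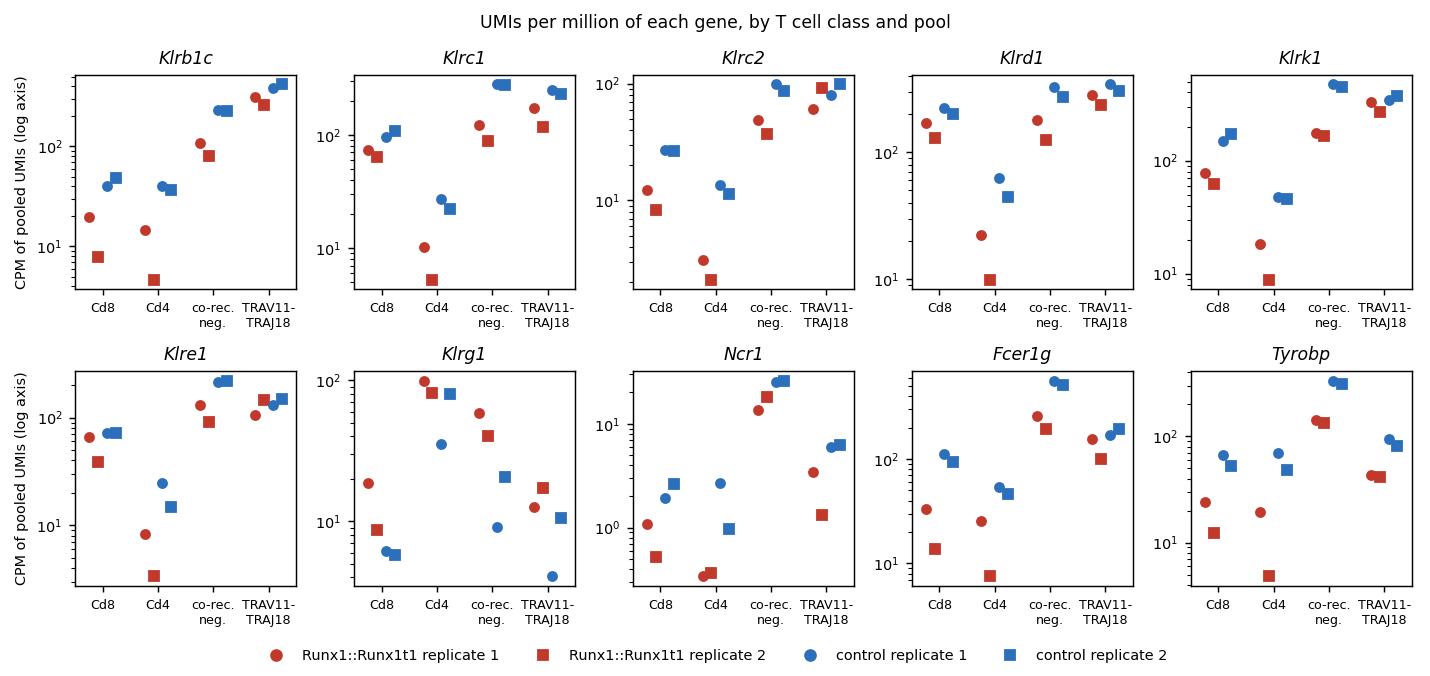
Level of each gene in CPM (log axis) in the 4 T cell classes, with 1 point per pool; red is the Runx1::Runx1t1 group, blue the control group, circles replicate 1 and squares replicate 2. In co-receptor-negative T cells both red points lie under both blue points for 9 genes and above them for Klrg1.

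Part of a low share can come from free RNA in the droplets. B cells (43 cells with a Cd79a and a Ms4a1 UMI and no TCR contig, with a median of 3775 UMIs per cell) served as cells that should lack most of these genes. Klrc1, Klrd1 and Klrk1 had a UMI in 1 B cell each, or 2.33% (95% Wilson interval 0.412 to 12.1). Klrb1c, Klrc2, Klre1, Klrg1, Ncr1 and Fcer1g had none in 43 cells. Their limit was set at 3 of 43 cells, or 6.98%, which is not a Wilson bound. Tyrobp, which B cells of this gate held in 9 of 43 cells (20.9%, 11.4 to 35.2), is not judged against them. The median depth of the classes was 6940 to 7779 UMIs in Cd8, 4600 to 5468 in Cd4, 4879 to 6377 in co-receptor-negative and 5273 to 6557 in TRAV11-TRAJ18 T cells. In Cd4 T cells of the Runx1::Runx1t1 pools the shares of the 8 genes other than Klrg1 and Tyrobp were 0.056 to 5.39%, within what the B cells allow, and are not read as expression. A UMI of Klrg1 was found in 14.4 and 13.5% of these cells, above the limit from B cells. The few and shallower B cells set only a wide limit. Of them 10 and 5 came from the Runx1::Runx1t1 pools and 27 and 1 from the control pools, so 1 limit served all pools.

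T cells of the Runx1::Runx1t1 group were compared with those of the control group in each class. The largest body of differences was in co-receptor-negative T cells, where 9 of the 10 genes were lower and Klrg1 was higher in the Runx1::Runx1t1 group. All 10 passed the edgeR quasi-likelihood test, while 12.3% of 11423 genes tested did (4.87% as lower and 7.45% as higher). The median log2 difference of the 10 genes was -1.24, beside -0.00449 over all genes tested.

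**Figure D2:**
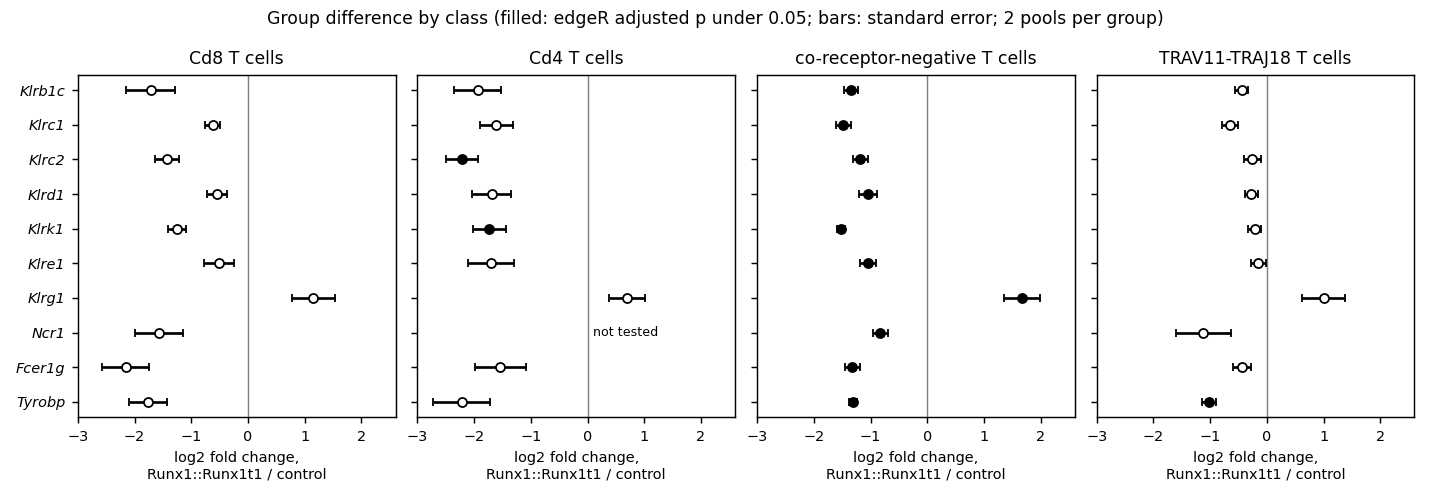
Log2 fold change of each gene, Runx1::Runx1t1 over control (x axis), in each T cell class, with its standard error from edgeR over 2 pools per group; filled points have an adjusted p under 0.05. Points lie left of 0 for every tested gene but Klrg1 in all 4 classes, and all 10 are filled in co-receptor-negative T cells.

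Among the activating receptors of co-receptor-negative T cells, Klrk1 had the smallest adjusted p. It encodes NKG2D, the receptor of stress-induced ligands. It measured 175 and 166 CPM in the Runx1::Runx1t1 pools and 472 and 450.2 CPM in the control pools. The log2 difference was -1.53 ± 0.07 (adjusted p = 1.58e-05). A Klrk1 UMI was found in 25.7% (95% Wilson interval 23.5 to 28.0) and 21.3% (18.6 to 24.3) of cells in the Runx1::Runx1t1 pools, and in 67.4% (65.4 to 69.3) and 66.5% (64.4 to 68.5) in the control pools. Intervals cover counting error only. The Runx1::Runx1t1 cells of this class were less deeply sequenced, with a median of 4879 and 5129 UMIs against 6377 and 6341. After each cell was thinned to 2000 UMIs the shares with Klrk1 were 16.8 and 14.9% against 48.8 and 45.8%, so the groups stayed apart at equal depth.

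Klrb1c fell from 230.1 and 225 CPM in the control pools to 108 and 81.2 CPM (log2 difference -1.34 ± 0.12, adjusted p = 0.000268). The share of cells with a Klrb1c UMI was 22.1 and 16.1% against 51.7 and 50.4%. Ncr1 measured 13.6 and 17.95 CPM against 25.4 and 26.0 CPM, with a difference of -0.83 ± 0.13 (adjusted p = 0.00468). This was the smallest of the 10 differences, and its pools did not overlap either. The Ncr1 call was lost when co-receptor-negative cells were required to hold at least 5000 UMIs (-0.48, adjusted p = 0.0771) and in single-cell clonotypes alone (-0.58, adjusted p = 0.0509). The exact permutation test of 2 pools against 2 cannot give a two-sided p under 0.333, so the non-overlap of pools is a description. Both Runx1::Runx1t1 pools lay under both control pools for 18.8% of genes and above them for 39.5%, and for 9 and 1 of the 10 genes.

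CD94 and the receptors that pair with it were lower as well. Klrc1, which encodes the inhibitory receptor NKG2A, measured 122 and 87.4 CPM against 278 and 276 CPM in the control pools (-1.48 ± 0.14, adjusted p = 0.000268). Klrc2, the activating NKG2C, measured 48.6 and 37.0 CPM against 98.7 and 86.1 CPM (-1.18 ± 0.13, adjusted p = 0.000651). Both sets of pools were apart. Klrd1 itself measured 182 and 125 CPM against 326 and 273 CPM (-1.04 ± 0.16, adjusted p = 0.00344). Klre1, whose product pairs with the Klri chains and can carry either sign of signal, had 131 and 90.6 CPM against 214 and 220.0 CPM (-1.05 ± 0.15, adjusted p = 0.00225). Inhibitory and activating receptors of the set therefore fell together in this class, other than Klrg1.

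Klrg1 was the one gene of the set that rose in co-receptor-negative T cells. It measured 59.0 and 40.1 CPM in the Runx1::Runx1t1 pools and 9.06 and 20.7 CPM in the control pools (1.67 ± 0.32, adjusted p = 0.0103). A Klrg1 UMI was found in 11.5 and 10.2% of cells against 2.35 and 4.75%. The limit from B cells was 6.98%, so the control pools lay under it and the Runx1::Runx1t1 pools above it. The call was lost under DESeq2 (adjusted p = 0.0977) and without Runx1::Runx1t1 replicate 1 (1.32, adjusted p = 0.0694). It held in cells of single-cell clonotypes alone, with 1.99 (adjusted p = 0.000903), an alternative chosen after the data were seen.

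The adaptors fell with the receptors. Fcer1g measured 259.7 and 192 CPM in the Runx1::Runx1t1 pools of this class and 561 and 507 CPM in the control pools (-1.32 ± 0.13, adjusted p = 0.000371). A Fcer1g UMI was found in 22.9 and 16.1% of cells against 61.5 and 58.9%. Tyrobp measured 143 and 134 CPM against 334 and 314 CPM (-1.31 ± 0.08, adjusted p = 2.99e-05), and its shares were 14.4 and 10.5% against 37.7 and 35.8%. Neither gene's pools overlapped. Myeloid cells also express both adaptors, and the summed level of 8 myeloid markers in this class was 14.4 and 42.0 CPM in the Runx1::Runx1t1 pools and 665 and 142 CPM in the control pools, with all 8 genes found in each pool. Mast cells and basophils express Fcer1g too, and their 5 markers moved the other way, with 28.2 and 97.4 CPM against 1.23 and 1.68 CPM, and with Ms4a2 and Fcer1a at 0 in all pools but Runx1::Runx1t1 replicate 1. With the cells left out that had 2 or more B cell, myeloid or erythroid markers, Fcer1g differed by -1.34 and Tyrobp by -1.29, and both stayed called. The natural killer cell list of 8 genes, 1 of them Ncr1, summed to 1095 and 1073 CPM against 1304 and 1579 CPM, with Klra4 at 0 in both control pools. Cells with 2 or more of its genes were 24.8 and 24.9% against 43.3 and 44.1%. The part of this list in the result was not tested.

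The number of receptors per cell summarised the class. Of the 8 receptors, a co-receptor-negative T cell had UMIs of 1.52 and 1.15 on average in the Runx1::Runx1t1 pools and of 3.40 and 3.32 in the control pools. At least 3 receptors were found in 27.9 and 20.2% of cells against 67.4 and 65.9%. At 2000 UMIs per cell these shares were 14.2 and 9.55% against 38.4 and 36.8%, still apart. Markers of the class moved with the groups as well. Zbtb7b, the factor of the Cd4 lineage, measured 19.3 and 25.6 CPM in the Runx1::Runx1t1 pools and 11.89 and 11.996 CPM in the control pools, and the class was 802 to 1405 cells in one group and 2083 to 2131 in the other. Whether the same kinds of cells were captured in the class in both groups was not tested.

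Cells with no TCR contig that held Cd3 and Trdc UMIs gave a view outside the 4 classes. They numbered 452 and 334 in the Runx1::Runx1t1 pools and 1080 and 947 in the control pools, at a median of 6642 and 6924 UMIs against 6080 and 6452. Klrk1 measured 226 and 189 CPM there against 337 and 325 CPM, and Klrb1c 126 and 74.9 CPM against 186 and 179.8 CPM. Ncr1 measured 42.8 and 38.0 CPM against 56.2 and 54.9 CPM. No test was made in these cells. Klrg1 measured 10.7 and 5.59 CPM against 3.72 and 2.20 CPM.

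In Cd8 T cells the differences had the same signs, but none of the 10 genes passed after adjustment. Only 6 of 12951 genes tested were called (0.0463%), 0.0309% as higher and 0.0154% as lower. At an unadjusted p under 0.05 there were 2599 genes, and 9 of the 10 (not Klre1). The median difference of the 10 genes was -1.34, beside -0.00464 over all genes. Without Runx1::Runx1t1 replicate 1 there were 9 calls, without Runx1::Runx1t1 replicate 2 there were 6, and without either control pool there were 0. DESeq2 called 7.

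Fcer1g had the largest fitted difference of the 10 in this class, with 33.3 and 13.7 CPM in the Runx1::Runx1t1 pools and 111 and 93.2 CPM in the control pools (-2.16 ± 0.42, adjusted p = 0.0916). A UMI was found in 6.52 and 3.44% of cells, under the 6.98% that B cells allow, against 17.9 and 15.8%. Tyrobp measured 23.9 and 12.3 CPM against 66.2 and 52.9 CPM (-1.76 ± 0.34, adjusted p = 0.0916). Klrk1 measured 77.3 and 62.0 CPM against 149 and 171 CPM (-1.25 ± 0.16, adjusted p = 0.0732). The groups did not overlap for any of these 3 genes. For all 10 genes both Runx1::Runx1t1 pools lay on 1 side of both control pools, 9 under and 1 above, where the background was 20.7 and 33.2% of genes. Klrd1, the most frequently found of the receptors in Cd8 T cells, had UMIs in 56.2 and 42.3% of cells against 67.2 and 63.5%. Its log2 difference was -0.55 ± 0.18 (adjusted p = 0.177). Klrg1 measured 18.6 and 8.68 CPM against 6.20 and 5.78 CPM (1.15 ± 0.38, adjusted p = 0.188).

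The Cd8 comparison was also made by clone size. Among Cd8 T cells of single-cell clonotypes alone, an alternative chosen after the data were seen, 7 genes passed the test, with -1.92 for Fcer1g (adjusted p = 0.0155), -1.67 for Tyrobp (adjusted p = 0.0163) and -1.09 for Klrk1 (adjusted p = 0.00346). Klrg1 had 0.84 there and did not pass (adjusted p = 0.0868). With 1 cell per clonotype 8 genes of the set passed, and without the largest clonotype 5. Over all genes, 654 were called in single-cell clonotypes, 633 with 1 cell per clonotype and 561 without the largest clonotype. In all Cd8 T cells 6 were called, so the rise in calls was not limited to the set. With the replicate number as a block 4 of the set passed (Klrc2, Klrk1, Fcer1g and Tyrobp), beside 578 over all genes. The myeloid list measured 28.0 and 10.9 CPM in Cd8 T cells of the Runx1::Runx1t1 pools and 184 and 73.3 CPM in the control pools. Without cells that held 2 or more B cell, myeloid or erythroid markers, Fcer1g had -2.07 and Tyrobp -1.53.

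Cytotoxic genes were summed beside these receptors. The list of Gzma, Gzmb, Gzmk, Prf1, Ccl5 and Nkg7 summed to 11327 and 20481 CPM in Cd8 T cells of the Runx1::Runx1t1 pools and to 5626 and 6101 CPM in the control pools. In co-receptor-negative T cells the same list summed to 9105 and 7758 CPM against 9690 and 9006 CPM, where the pools overlapped. The share of cells with 2 or more of the list's genes was 83.9 and 92.7% against 67.1 and 75.8% in Cd8 T cells, and 60.4 and 62.8% against 84.0 and 81.1% in co-receptor-negative T cells, apart in opposite directions. These values carry no test.

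In Cd4 T cells 2 genes passed the test as lower, Klrc2 and Klrk1, beside 1.42% of 11177 genes tested that were called (0.51% as lower and 0.913% as higher). Klrc2 measured 3.07 and 2.10 CPM against 13.6 and 11.4 CPM in the control pools (-2.22 ± 0.28, adjusted p = 0.0159). A Klrc2 UMI was found in 1.08 and 0.674% of cells in the Runx1::Runx1t1 pools and in 4.16 and 3.54% in the control pools. All these shares were under the limit from B cells, which thus does not set them apart from background. Klrk1 measured 18.2 and 8.85 CPM against 47.8 and 45.6 CPM (-1.73 ± 0.29, adjusted p = 0.0401). In the control pools 8.55 and 7.73% of cells had a Klrk1 UMI, and in the Runx1::Runx1t1 pools 3.97 and 2.36%, all within the interval of the share in B cells (0.412 to 12.1%). Of the other tested genes 6 had differences of -1.54 to -2.22 and 1, Klrg1, had 0.70 ± 0.31, none of which passed. Ncr1 was too low to be tested. The calls were 8 without either Runx1::Runx1t1 pool or with the replicate number as a block, 6 without control replicate 2, and 1 without control replicate 1, when Klrk1 had an adjusted p of 0.0556. When a Cd4 cell needed at least 2 co-receptor UMIs there were 0 calls, and Klrc2 had -2.50 (adjusted p = 0.0543) and Klrk1 -1.62 (adjusted p = 0.105).

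In TRAV11-TRAJ18 T cells Tyrobp alone passed, beside 0.779% of 9632 genes tested that were called (0.332% as lower and 0.446% as higher). It measured 43.0 and 41.4 CPM in the Runx1::Runx1t1 pools and 94.96 and 80.6 CPM in the control pools (-1.01 ± 0.13, adjusted p = 0.00144). The pools were apart in CPM, as they were for 7 genes as lower and for Klrg1 as higher, where 23.7 and 15.4% of all genes were. For Tyrobp the share of cells with a Tyrobp UMI was 9.35 and 10.0% against 10.2 and 13.0%. The myeloid markers measured 7.84 and 9.86 CPM against 574 and 170.5 CPM in this class, with Elane at 0 in all pools but control replicate 1. Without cells that held 2 or more B cell, myeloid or erythroid markers, the Tyrobp difference was -0.64 (adjusted p = 0.0391). Klrb1c had -0.45 ± 0.11 (adjusted p = 0.111), Klrk1 had -0.21 ± 0.11 (adjusted p = 0.604), and the share of cells with a Klrk1 UMI was 53.7 and 42.0% against 54.4 and 53.8%. With the replicate number as a block 5 genes passed, and leaving out 1 pool gave 3 to 6, the most without Runx1::Runx1t1 replicate 1.

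Whether the difference between groups depended on the class was tested for co-receptor-negative against Cd8 T cells with an interaction term, and 1.89% of 12929 genes passed (0.704% as lower and 1.18% as higher). Klrc1 fell by 0.88 more on the log2 scale in co-receptor-negative than in Cd8 T cells (interaction -0.88 ± 0.10, adjusted p = 0.0124). In Cd8 T cells Klrc1 measured 74.0 and 63.3 CPM against 94.8 and 108 CPM. Klrd1 also had a larger fall in the co-receptor-negative class (-0.50 ± 0.08, adjusted p = 0.0291). Both calls were lost without control replicate 1 (adjusted p = 0.0986 and 0.343), without control replicate 2 (0.074 and 0.247) and without the pool as a block (0.228 and 0.566). The other 8 genes did not pass, from -0.53 for Klre1 to 0.92 for Fcer1g. The group comparisons of the 4 classes share their pools and are not independent of each other.

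Clone size was read from the TCR libraries. A clonotype was a pair of TRA and TRB sequences within a pool, and a clonotype of at least 2 cells was called expanded. In Cd8 T cells the genes split by clone size. Klrg1 was higher in expanded than in single-cell clonotypes, and Klrc2, Fcer1g and Tyrobp were lower, beside 23.3% of 12732 genes tested (11.7% higher and 11.6% lower).

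Among single Cd8 T cells 2.46 and 2.02% had a Klrg1 UMI in the Runx1::Runx1t1 pools and 1.13 and 1.13% in the control pools. In clonotypes of 2 to 4 cells the shares were 19.5 and 14.8% against 15.1 and 12.1%, and in those of 5 to 19 cells 23.8 and 11.1% against 22.5 and 11.6%. All single-cell shares were under the 6.98% that B cells allow, and all shares of clonotypes of 2 to 19 cells were above it in both groups. The log2 difference was 3.31 ± 0.35 (adjusted p = 0.00403) and was called under every alternative run. In clonotypes of 20 or more cells Klrg1 was found in 20.6 and 3.12% of cells in the Runx1::Runx1t1 pools and in 8.70% of 92 cells in control replicate 2, while control replicate 1 had no such clonotype. The largest clonotypes therefore did not follow 1 pattern.

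Fcer1g went the opposite way. It was found in 7.28 and 4.79% of single Cd8 T cells in the Runx1::Runx1t1 pools and in 18.6 and 17.3% in the control pools, and in 4.44 and 0.873% against 11.8 and 8.58% of cells in clonotypes of 2 to 4. The log2 difference between expanded and single cells was -1.24 ± 0.24 (adjusted p = 0.0177). Klrc2 had -1.31 ± 0.23 (adjusted p = 0.0124) and Tyrobp -0.52 ± 0.13 (adjusted p = 0.0328). These 3 calls were less stable than that of Klrg1. All 3 were lost without Runx1::Runx1t1 replicate 1 (adjusted p = 0.0842 for Fcer1g, 0.0836 for Klrc2 and 0.0736 for Tyrobp). Without control replicate 1 the calls of Fcer1g (0.0518) and Tyrobp (0.0678) were lost, and without control replicate 2 that of Tyrobp (0.0797). The Tyrobp call was also lost with doublets kept (0.076), under the stricter class rule (0.0654), without the largest clonotype (0.0591) and without cells bearing other markers (0.0882), and held in 6 of 14 alternatives. Without the pool as a block only Klrg1 was called.

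Klrk1 and Klrc1 had no difference between expanded and single cells that passed the test, and their values by clone size were not monotone. Klrk1 was found in 27.4 and 30.3% of single Cd8 T cells in the control pools and in 42.0 and 56.4% of cells in clonotypes of 2 to 4. In the Runx1::Runx1t1 pools it was found in 17.7 and 19.1% of single cells, 32.8 and 22.7% in clonotypes of 2 to 4, and 23.7 and 5.17% in those of 20 or more. Shares were thus highest at 2 to 4 cells in 3 of the 4 pools and lowest at 20 or more in Runx1::Runx1t1 replicate 2. That pool held the largest clonotype, of 1093 Cd8 T cells, in which 2.56% had a Klrk1 UMI.

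**Figure D3:**
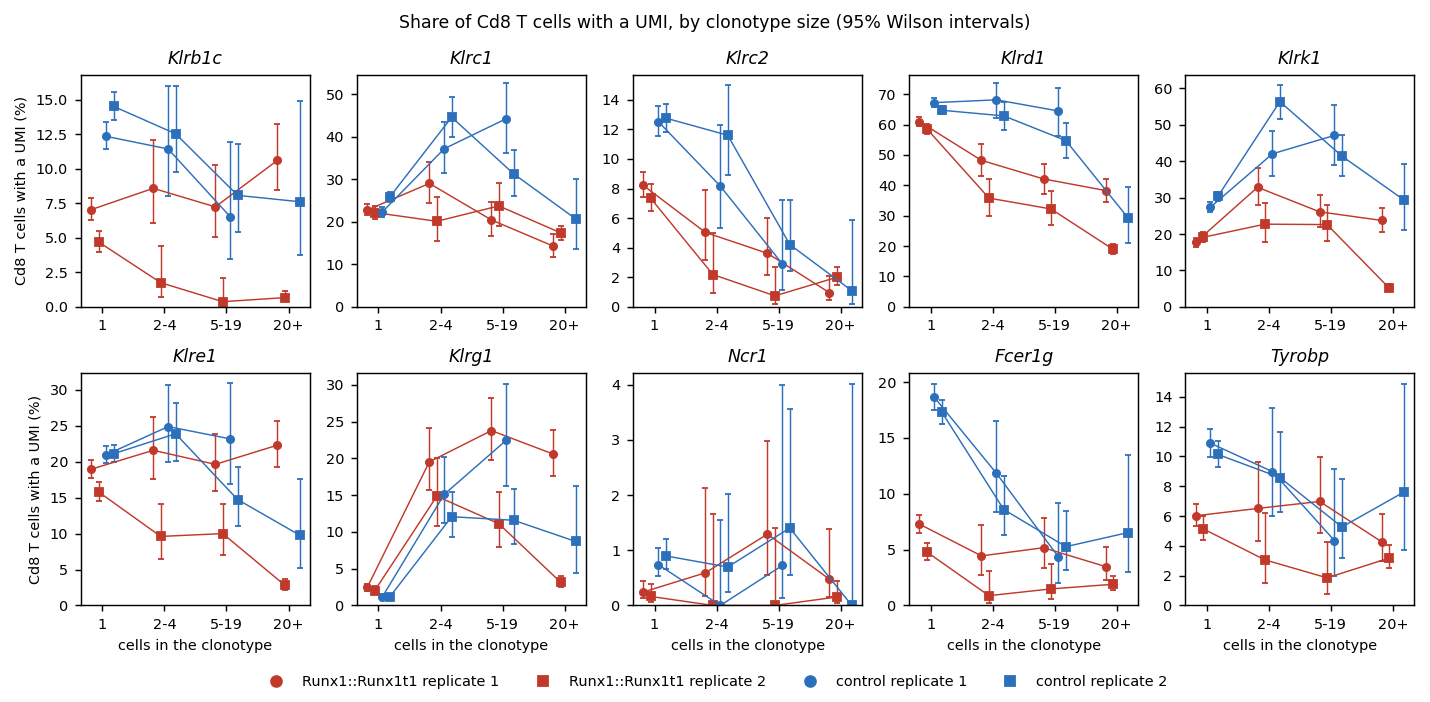
Share of Cd8 T cells with a UMI of each gene (y axis, percent, with 95% Wilson intervals) by the number of cells in the clonotype (x axis), with 1 line per pool; red is the Runx1::Runx1t1 group and blue the control group. Klrg1 rises from 1.13 to 2.46% of single cells to 12.1 to 19.5% at 2 to 4 cells in all 4 pools, while Fcer1g is lower at 2 to 4 cells than in single cells in all 4.

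No gene passed an edgeR test of whether the effect of clone size differed between the groups, among 12732 tested. At an unadjusted p under 0.05 there were 2134 genes and 2 of the 10, Klrc1 (-0.75 ± 0.18, adjusted p = 0.17) and Klrc2 (-0.93 ± 0.27, adjusted p = 0.196). DESeq2 called 184 genes and none of the 10. Calls in fits that leave 1 pool in a group depended on the pool left out and are not read as a result.

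Shares over single large clonotypes had a wide range. There were 30 clonotypes with at least 20 Cd8 T cells, of which 26 came from Runx1::Runx1t1 mice and 4 from control mice. Klrd1 was found in 0.606 to 88.9% of the cells of a clonotype (median 20.7%), Klrc1 in 0 to 100% (median 5.203%), Klrk1 in 0 to 95.5% (median 6.34%) and Klrg1 in 0 to 86.4% (median 3.93%). Ncr1 had no UMI in 29 of the 30. The largest clonotype, of 1093 cells in Runx1::Runx1t1 replicate 2, had Klrc1 in 22.5% and Klrd1 in 21.3% of cells, but Klre1 in 0.457% and Klrg1 in 0.274%. The next largest, of 165 cells of the same pool, had Klrd1 in 0.606% and no Klrc1 UMI.

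A few clonotypes are named here after their values were seen. Some smaller ones carried many receptors at once. One of 22 cells in Runx1::Runx1t1 replicate 1 had Klrc1 in 100% of cells, Klrk1 in 95.5%, Klrd1, Klre1 and Klrg1 each in 86.4%, and Klrb1c in 40.9%. One of 27 cells in the same pool had Klrd1 and Klrk1 each in 88.9%, Klre1 in 77.8%, Klrc1 in 70.4% and Klrg1 in 63.0%. In a clonotype of 41 cells in Runx1::Runx1t1 replicate 2, Klrg1 was found in 68.3% of cells and Klrd1 in 7.32%, with no UMI of the other 6 receptors, and its median depth of 9236 UMIs was above that of its class. The 4 control clonotypes had Klrk1 in 18.2 to 40.9% of cells. Cells of 1 clonotype are not replicates, and no test was made between clonotypes.

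**Figure D4:**
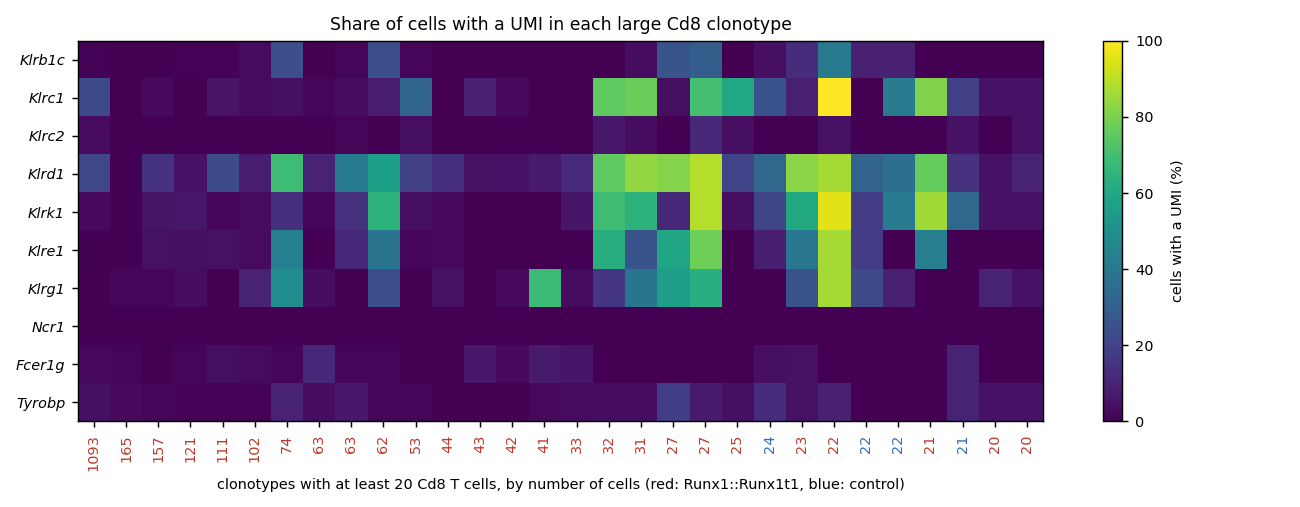
Percent of cells with a UMI of each gene (rows) in each of the 30 clonotypes with at least 20 Cd8 T cells (columns, ordered and labelled by their number of cells; red labels for the Runx1::Runx1t1 group, blue for the control group). Klrd1, Klrk1, Klre1 and Klrc1 reach high shares together in several clonotypes of 21 to 32 cells and are low in most of the largest ones, and the Ncr1 row is at or near 0 throughout.

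Clonal expansion outside the Cd8 class gave a similar picture for Klrg1. Of co-receptor-negative single cells 8.02 and 8.77% had a Klrg1 UMI in the Runx1::Runx1t1 pools and 1.79 and 2.83% in the control pools. In clonotypes of 2 to 4 cells the shares were 24.6 and 28.4% against 6.38 and 12.2%. Klrk1 went down from 28.5 and 26.6% to 14.9 and 5.41% in the Runx1::Runx1t1 pools and from 69.2 and 67.5% to 48.2 and 48.0% in the control pools. Every pool thus had more cells with Klrg1 and fewer with Klrk1 in these clonotypes than among single cells. Larger clonotypes of the class held few cells and varied, and none of 24 cells in clonotypes of 5 to 19 of Runx1::Runx1t1 replicate 2 had a Klrg1 UMI. One set stood out after the values were seen, a set of 44 co-receptor-negative cells from 3 clonotypes of 20 or more cells in control replicate 2. In it Klrk1 was found in 84.1% and Klrg1 in 61.4%. No test was made of clone size in this class.

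Fixed pairs of receptors, partner chains and adaptors were looked up in the same cell, in Cd8 and in co-receptor-negative T cells. Fcer1g with Tyrobp, both adaptors, and Klrd1 with Fcer1g were among them and are not known to assemble. In all 80 values (10 pairs, 4 pools and the 2 classes) the second gene was found more often beside the first than without it. In co-receptor-negative T cells of the Runx1::Runx1t1 pools Tyrobp was found in 51.9 and 48.8% of cells with Fcer1g, against 3.32 and 3.12% without. In the control pools it was 55.6 and 55.1% against 9.14 and 8.28%. Such a contrast was thus not limited to pairs that assemble. Deeper cells give more UMIs of both genes, so part of each difference can follow depth. At 2000 UMIs per cell 76 of the 80 remained, and the other 4 were all of Klre1 with Klri2, a gene found in few cells.

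NKp46, the product of Ncr1, signals through the Fc receptor gamma chain. Among co-receptor-negative T cells with an Ncr1 UMI, 95.2 and 95.5% had Fcer1g in the Runx1::Runx1t1 pools (42 and 22 cells) and 99.4 and 97.1% in the control pools (161 and 175 cells). Without an Ncr1 UMI the shares were 20.7 and 13.8% against 58.4 and 55.3%. At 2000 UMIs they were 90.9 and 100%, against 91.4 and 91.4%, beside Ncr1. Shares beside Ncr1 were near their ceiling, so a lower Fcer1g level within those cells could not show in them.

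A Klrc1 UMI went with Klrd1 in 86.1, 78.8, 83.2 and 81.0% of cells in Runx1::Runx1t1 replicates 1 and 2 and control replicates 1 and 2, against 22.0, 12.7, 56.6 and 46.8% without it. At 2000 UMIs the contrast was smaller in the control pools, with 44.8 and 44.9% against 37.7 and 29.4%. Klrk1 signals through Hcst in T cells, and Hcst was found in 97.8 to 98.8% of cells with a Klrk1 UMI and also in 80.5 to 84.7% of those without. Tyrobp, its other adaptor in the mouse, was found in 39.6, 37.4, 50.1 and 49.1% of cells with a Klrk1 UMI, against 5.75, 3.17, 12.2 and 9.46% without. Hcst was thus near its ceiling in either kind of cell, and Tyrobp was not.

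**Figure D5:**
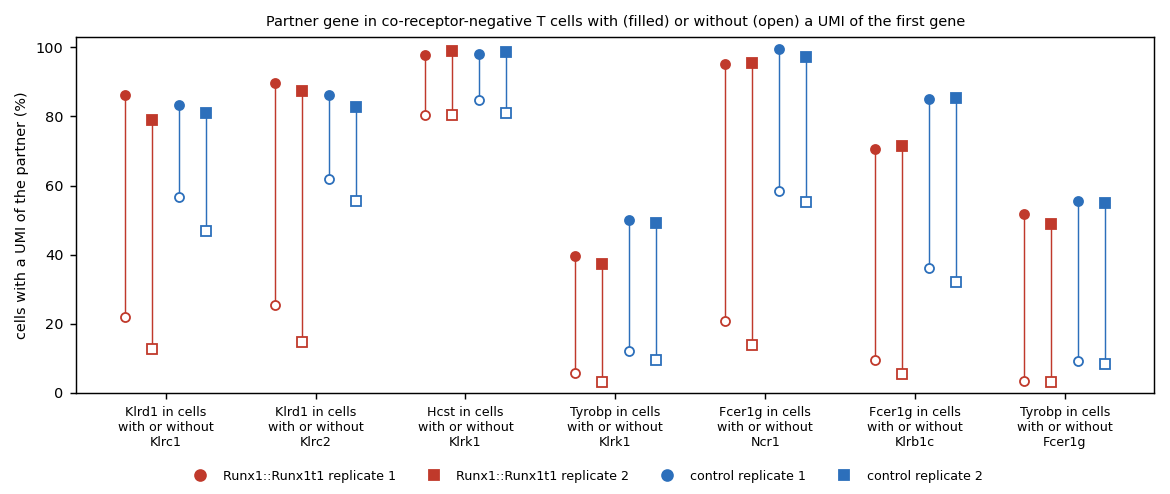
Share of co-receptor-negative T cells with a UMI of a partner gene (y axis, percent) among cells with (filled) and without (open) a UMI of the first gene, with 1 pair of points per pool; red is the Runx1::Runx1t1 group, blue the control group. Filled points of Fcer1g beside Ncr1 lie between 95.2 and 99.4% in all 4 pools, while the open points are 13.8 and 20.7% in red and 55.3 and 58.4% in blue.

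Further genes of the same biology were counted in lists chosen by function. Of 18 further natural killer receptors tested in co-receptor-negative T cells, 8 were lower and 1 higher in the Runx1::Runx1t1 group, where 4.87% of all genes were lower and 7.45% higher, with a median of -0.38 beside -0.00475 over all gene symbols tested. The lower ones were Klrc3 (-1.73), Klri2 (-1.57), the Fc receptor Fcgr3 (-1.30), Crtam (-0.91), Cd160 (-0.85), Cd7 (-0.83), Il2rb (-0.44) and Nkg7 (-0.27). The higher one was the inhibitory receptor Tigit (1.59). In Cd8 T cells none of 17 was called. In Cd4 T cells Slamf6 was lower (-0.65) and Nkg7, a granule protein, higher (1.71), among 13 tested.

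Of 23 signaling partners tested in co-receptor-negative T cells, 4 were higher and 2 lower, beside 7.45 and 4.87% of all genes, with a list median of -0.000711. The higher ones were Lat (0.77), Cd247 (0.44), Plcg1 (0.44) and Lcp2 (0.38). The lower ones were Plcg2 (-1.26), a phospholipase downstream of Syk-type kinases, and the phosphatase Ptpn6 (-0.53), which inhibitory receptors recruit. Of 7 ligands tested, Clec2i (-0.76) and Clec2d (-0.62), ligands of Klrb1 family receptors, were lower and H2-T23 (0.38), the Qa-1 molecule that the Klrc receptors read, was higher. Clec2d was lower in Cd4 (-0.58) and TRAV11-TRAJ18 T cells (-0.72) as well. The 4 ligands not tested were too low.

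In expanded against single Cd8 T cells, 8 of 23 signaling partners were higher and none lower, beside 11.7 and 11.6% of all genes, with a median of 0.331 beside 0.0109 over all genes. They included the adaptor of SLAM receptors Sh2d1a (0.92), the phosphatase Ptpn11 (0.83), the kinase Fyn (0.79) and Hcst (0.43). Of 17 further receptors tested, Cd244a (2.99), Tigit (2.74), Slamf7 (1.31), Nkg7 (1.28) and Cd160 (0.97) were higher and Slamf6 (-0.89) was lower. Klrg1 thus rose with expansion beside Tigit and Cd244a, whose products are inhibitory or of either sign. Of the 7 ligands tested H2-T23 (0.45) and H2-D1 (0.28) were higher.

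Over the 16 sums of class and pool, the genes whose levels ran most like those of the set were listed as a description, since the sums share libraries and depth. Klrk1 was most like Rnf130 (Pearson r = 0.98), Klrc1 like Evl (0.98), Klrb1c like Rbpms (0.98) and Klrc2 like the Ly49 receptor gene Klra1 (0.98). Klrg1 had Ass1 (0.94), Tnfrsf4 (0.93) and Dusp4 (0.93) as its nearest, none of which was among the 3 nearest of another gene of the set. Tyrobp (Setd4, 0.91) and Ncr1 (Rhob, 0.89) had the lowest values of the first-ranked genes.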

How the data were processed

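CD3+ bone marrow T cells were profiled by 10x 5′ single-cell RNA and TCR sequencing in 8 libraries. The deposited values are UMI counts per gene and barcode, which the authors made with Cell Ranger 6.1.2 on GRCm38. The annotation release was not given in the sources used here. A barcode was kept if it held 200 or more genes and if no more than 15% of its UMIs were mitochondrial. Doublets were scored with Scrublet in scanpy 1.11.5 at an expected rate of 0.05. In 3 libraries the automatic threshold marked under 0.5% and the top 5% of scores were removed instead. Of 56649 barcodes 55850 passed and 53033 remained. Cells with both co-receptors (1140) were left out of the classes. A clonotype was the same nucleotide CDR3 of the leading TRA and TRB contig within a pool. Counts were summed per pool and class and tested with edgeR 4.0.16 (quasi-likelihood, TMM, filterByExpr) in R 4.3.3, Benjamini-Hochberg over all genes, at 0.05. Class, clone size and interaction comparisons had the pool as a block. A result was recomputed with DESeq2 1.42.0, other filters, class rules and clonotype choices, and without each pool. Scripts were tested on simulated counts. The 10 genes were named in every comparison, the listed genes where they passed the threshold, and the 3 genes most like each by the correlation of log2(CPM + 1). The genes, lists and tests were chosen with earlier results of these data known. Intervals are 95% Wilson intervals. Some marker lists and reference sets of cells are not reported here.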

Additional observations from a re-analysis of the deposited data

Results flagged for a closer look

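The difference between the groups was not the same in co-receptor-negative and Cd8 T cells for Klrc1 and Klrd1, by an interaction term in edgeR. The interaction was -0.88 ± 0.10 for Klrc1 (adjusted p = 0.0124) and -0.50 ± 0.08 for Klrd1 (adjusted p = 0.0291), both on the log2 scale and both with the larger fall in the co-receptor-negative class. The sign was the same in each of the 16 alternatives run, and the call held in 13 of them for Klrc1 and in 12 for Klrd1. Both calls were lost without control replicate 1, without control replicate 2 and without the pool as a block.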

How the results depend on the processing

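Genes and members called (of the 10) are given under each alternative that moved the count by over 1.5 times; causes were not tested. Cd8 between groups had 6 genes and 0 members, against 686 and 7 with DESeq2, 584 and 6 with no low-count filter, 578 and 4 with the replicate number as a block, 633 and 8 with 1 cell per clonotype, 561 and 5 without the largest clonotype, 654 and 7 in single-cell clonotypes, and 39 genes without cells bearing other markers. Cd4 had 159 and 2, against 4 members with DESeq2, 275 and 6 with no filter, 252 and 8 with the block, 0 members under the stricter class rule, 82 genes with 1 cell per clonotype and 91 in single-cell clonotypes. Co-receptor-negative had 1407 genes, against 881 with DESeq2 and 868 under the class rule. TRAV11-TRAJ18 had 75 and 1, against 37 genes with DESeq2, 226 and 5 with no filter, 236 and 5 with the block, and 2 members with 1 cell per clonotype or in single-cell clonotypes. Co-receptor-negative against Cd8 had 2137 and 9, against 1021 and 4 without the pool block, 3243 genes with 1 cell per clonotype and 3237 in single-cell clonotypes. Without the pool block 5 members were called in TRAV11-TRAJ18 and 5 in Cd4 against Cd8, and 1 by expansion. The clone size interaction had 0 genes, against 184 with DESeq2, 540 and 1 member with no filter, 370 without the largest clonotype and 2 without cells bearing other markers. The class interaction had 244 and 2, against 821 and 4 with no filter, 36 and 0 without the pool block, 141 and 1 under the class rule, 1646 and 7 with 1 cell per clonotype, 860 and 5 without the largest clonotype, and 1453 and 8 in single-cell clonotypes.

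Leaving out each pool gave 1 to 1627 genes and 0 to 9 members in Cd8, 213 to 323 and 1 to 8 in Cd4, 896 to 1073 and 9 to 10 in co-receptor-negative, and 107 to 209 and 3 to 6 in TRAV11-TRAJ18 between groups. It gave 710 to 2268 and 7 to 9 for co-receptor-negative, 3261 to 4634 and 9 for TRAV11-TRAJ18, and 3746 to 4981 and 9 to 10 for Cd4 against Cd8. It gave 204 to 2528 and 1 to 6 by expansion, 0 to 2405 and 0 to 8 for the clone size interaction, and 15 to 1003 and 0 to 7 for the class interaction.

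No called value changed sign. Among values that had not passed, Klrg1 in TRAV11-TRAJ18 against Cd8 reversed, and was then called, to 0.61 with 1 cell per clonotype, 0.91 in single-cell clonotypes, and uncalled ran from -0.36 to 0.27 without a pool. Between groups in TRAV11-TRAJ18, without a pool, Klrc2 ran from -0.48 to 0.041 and Klre1 from -0.33 to 0.075, both reversed without Runx1::Runx1t1 replicate 1. By expansion, Klrc1 (-0.034) and Klrk1 (-0.19) did so with clonotypes of at least 5 cells, Ncr1 without the pool block (-0.12), without doublet removal (-0.034) and without the largest clonotype (-0.11), and without a pool Klrd1 (-0.44 to 0.12), Klrk1 (-0.11 to 0.54), Klre1 (-0.62 to 0.22) and Ncr1 (-0.46 to 0.35). In the clone size interaction Klrb1c reversed to 0.16 without the pool block, 0.11 under the class rule, 0.013 without the largest clonotype, 0.41 at 5 cells, and ran from -2.06 to 0.87 without a pool. Klrc2 (0.18) and Fcer1g (0.049) did so at 5 cells, Fcer1g (0.14) under the class rule, Tyrobp (-0.14) without the largest clonotype, and without a pool Tyrobp (-0.20 to 0.40), Klrk1 (-1.79 to 0.21) and Klre1 (-2.13 to 0.41). No source pairs the same-numbered pools, and the correlation of their deviations (0.16 to 0.267 over 2 pairs) does not settle it, so the block is given as an alternative only. Any chain, 1 cell per clonotype and single-cell clonotypes were not run for clone size. With 2 pools per group, calls in Cd8 and Cd4 T cells rest on few degrees of freedom, and Ncr1 had the fewest UMIs of the set.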

Other observations

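The interaction of group and class, taken over the functional lists, called 5 further genes among 23 signaling partners, 7 ligands and 18 receptors tested, 2 as higher and 3 as lower, beside 1.18 and 0.704% of all genes. Over all genes the calls fell from 244 to 36 without the pool as a block. Lat, an adaptor of TCR signaling, had 0.62 ± 0.10 (edgeR, adjusted p = 0.0306) and Slamf6 0.58 ± 0.11 (adjusted p = 0.0433). For both, the difference of Runx1::Runx1t1 from control was more positive in co-receptor-negative than in Cd8 T cells. Nkg7, a granule protein, had -1.13 ± 0.21 (adjusted p = 0.0479), Cd160 -0.96 ± 0.18 (adjusted p = 0.0465) and Crtam -0.78 ± 0.14 (adjusted p = 0.0403).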
